A study of Mus musculus with 5 samples.

Results

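The genes described here are 34 interferon response genes, chosen by symbol from the 31053 genes of the count tables, and all 34 symbols were found. They cover signalling (Irf1, Irf7, Irf9, Stat2), conjugation of ubiquitin-like proteins (Isg15, Usp18, Herc6, Trim25), the IFIT family (Ifit1, Ifit2, Ifit3), RNA sensing and nucleic acid response (Ifih1, Dhx58, Eif2ak2, Zbp1), oligoadenylate synthetases (Oas1a, Oas3, Oasl2), restriction at membranes and of replication (Ifitm3, Bst2, Rtp4, Rsad2, Cmpk2, Mx1), guanylate-binding proteins (Gbp2, Gbp7), antigen processing (Psmb8, Psmb9, Tap1, B2m) and 4 further targets (Ifi35, Xaf1, Parp14, Ifi44). Their UMI counts were compared across cell classes of ventral skin from C57BL/6J mice at postnatal day 28, between wild-type animals (WT, 2 libraries) and animals of genotype Prx1Cre+Ikkbf/f (Ikkb_cKO, 3 libraries), each library being a pool of cells from 2 mice. The floxed gene, Ikbkb in current nomenclature, encodes IKKβ, a kinase that releases the transcription factor NF-kB from its inhibitors, and Prx1Cre uses regulatory sequence of Prrx1, which is active in mesenchyme of the limbs and ventral body wall, so that blood-derived cells are not its main target. The labels do not say whether the wild-type animals carried the Cre or the floxed alleles.

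Type I and type III interferons are secreted after viral nucleic acid or damage is sensed, and type II interferon comes mainly from lymphocytes. Receptor binding activates JAK kinases, which phosphorylate transcription factors of the STAT family. A complex that holds STAT2 and IRF9 binds the interferon-stimulated response element (ISRE), and type II interferon acts mainly through the gamma-activated sequence (GAS). In skin, fibroblasts, keratinocytes and myeloid cells express a low tonic level of many of these genes, and NF-kB can also bind at the promoters of several of them.

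The 6 promoter stretches below are shown because each holds an ISRE core upstream of a gene that was called in fibroblast-like or myeloid-like cells. Oas3 also met this rule but is not printed, since the list was limited to the 6 smallest p-values of the class tests. The stretches come from RefSeq on GRCm38.p6, where 28 of the 34 genes were matched by symbol. All are written 5′ to 3′ on the gene's strand. Capitals mark the ISRE core, searched as GAAA, any 2 bases, GAAA on both strands within the 250 bases before the start site, so that its reverse complement (TTTC, any 2 bases, TTTC) is also in capitals where it matched. None of the stretches overlaps an annotated exon.
Isg15 (chr4:156200825-156200946, minus strand, 3 overlapping cores ending 56 bases before the start site): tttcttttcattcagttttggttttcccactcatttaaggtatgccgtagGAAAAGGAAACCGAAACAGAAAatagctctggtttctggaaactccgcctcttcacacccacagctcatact
Ifit3 (chr19:34583323-34583466, plus strand, the nearer of 2 cores ending 112 bases before the start site): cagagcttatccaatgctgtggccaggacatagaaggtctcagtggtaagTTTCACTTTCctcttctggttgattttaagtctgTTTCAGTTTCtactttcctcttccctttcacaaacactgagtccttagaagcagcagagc
Ifit1 (chr19:34640785-34640813, plus strand, the nearer of 2 cores ending 75 bases before the start site): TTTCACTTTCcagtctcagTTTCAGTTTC
Oas1a (chr5:120907526-120907595, minus strand, 2 overlapping cores ending 4 bases before the start site): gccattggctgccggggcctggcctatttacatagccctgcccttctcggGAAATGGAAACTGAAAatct
Bst2 (chr8:71537537-71537652, minus strand, 2 overlapping cores ending 114 bases before the start site): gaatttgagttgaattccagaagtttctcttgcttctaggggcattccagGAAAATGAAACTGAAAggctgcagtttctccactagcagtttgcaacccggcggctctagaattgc
Rsad2 (chr12:26456513-26456622, minus strand, 1 core ending 110 bases before the start site): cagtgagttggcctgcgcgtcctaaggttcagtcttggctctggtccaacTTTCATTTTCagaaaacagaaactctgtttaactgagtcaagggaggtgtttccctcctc

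The ISRE core stood in 11 of the 28 matched promoters (39.3%): those of Stat2, Isg15, Ifit1, Ifit3, Oas1a, Oas3, Bst2, Rsad2, Gbp2, Gbp7 and B2m. Among all 27025 genes with a promoter in the table, 3.46% held it. The GAS motif TTCNNNGAA was found in 7 of 28 (25.0%) against 8.13% of genes. A form of the kappaB motif (GGG, any 2 bases, TTTCC) was found in 1 of 28, B2m, against 1.65% of genes. Other forms of the kappaB motif were not searched, so the absence of this form does not show that a promoter lacks a kappaB site. Among matched genes tested in fibroblast-like cells, the core stood in 5 of 14 that fell in Ikkb_cKO and in 5 of 12 that were not called. In myeloid-like cells these counts were 7 of 18 and 4 of 9. A match in this window is a description of the letters and does not show that a factor bound there.

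Of 11084 barcodes, 10393 were kept, and clusters were named from marker genes. The WT libraries held 3206 and 3393 barcodes with 14659158 and 16773096 UMIs, and the Ikkb_cKO libraries 945 to 2523 barcodes with 2163166 to 9738296 UMIs. Only 3 classes reached 20 cells in all 5 libraries, the minimum set for a test: fibroblast-like (5497 cells), myeloid-like (2506) and lymphocyte-like (1159). Ikkb_cKO library 3 stood apart from libraries 1 and 2: in fibroblast-like cells the chi-square per degree of freedom between libraries was 1.45 for 1 and 2, 14.4 for 1 and 3, and 4.76 for the WT pair. Any pair of libraries shared at most 17 cell barcodes. Ikbkb itself was not called in any of these classes. Fibroblast-like cells had 16.5 ± 2.64 normalised CPM (SD, n = 2) in WT and 17.5 ± 2.86 (n = 3) in Ikkb_cKO. Myeloid-like cells had 101.3 and 100.4 in WT against 157.6, 115.4 and 177.2 in Ikkb_cKO, a log2 fold change of 0.60. In lymphocyte-like cells the log2 fold change was −0.30. Since 3′ tags can lie outside the floxed exons, these values do not check the deletion.

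In fibroblast-like cells, 18 of the 31 genes tested fell in Ikkb_cKO and 0 rose at an adjusted p under 0.05, where 18.1% of all 10459 genes tested fell and 17.4% rose. In myeloid-like cells, 23 of 33 fell and 0 rose, against 9.47% and 8.92% of 8942 genes. In lymphocyte-like cells, 3 of 16 fell and 1, B2m, rose, against 4.26% and 6.85% of 5112 genes. The adjusted p is Benjamini-Hochberg over all genes of a class from edgeR's quasi-likelihood test on UMI sums per library, and levels below are CPM (UMIs of a gene over all UMIs of the class and library, scaled to a common total), normalised by TMM unless called plain CPM. Without TMM scaling, 6 members fell and 0 rose in lymphocyte-like cells, and falls made up 53.8% of all calls there in place of 38.4%. The median log2 fold change of the tested members was −1.01 in fibroblast-like, −1.59 in myeloid-like and −0.59 in lymphocyte-like cells, where the medians of all genes were 0.04, −0.003 and 0.01. A member could pass the count filter through WT libraries alone, as Ifit3 did in myeloid-like cells. At an unadjusted p under 0.05 the members numbered 20, 27 and 8. The share of all genes at that level was not taken, so these counts do not set the members apart. Of the 3 falls in lymphocyte-like cells, that of Ifitm3 lies at a level near the background of free RNA, as given below.

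The libraries of the 2 genotypes did not overlap, with Ikkb_cKO lower, for 21 of the tested members in fibroblast-like cells (30.9% of all genes tested there), for 26 in myeloid-like cells (24.1%) and for 9 in lymphocyte-like cells (24.6%). Low counts kept Oas3, Mx1 and Ifi44 out of the test in fibroblast-like cells, Ifi44 out of that in myeloid-like cells and 18 members out of that in lymphocyte-like cells. Called in neither fibroblast-like nor myeloid-like cells were Irf9, Stat2, Trim25, Mx1, Gbp2, Gbp7, Psmb9, Tap1, B2m and Ifi44. Fewer members were called in each class when WT library 1 or WT library 2 was left out, which left 1 WT library. Calls over all genes tested also became fewer in each class, so the loss of calls was not particular to the members.

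**Figure D1:**
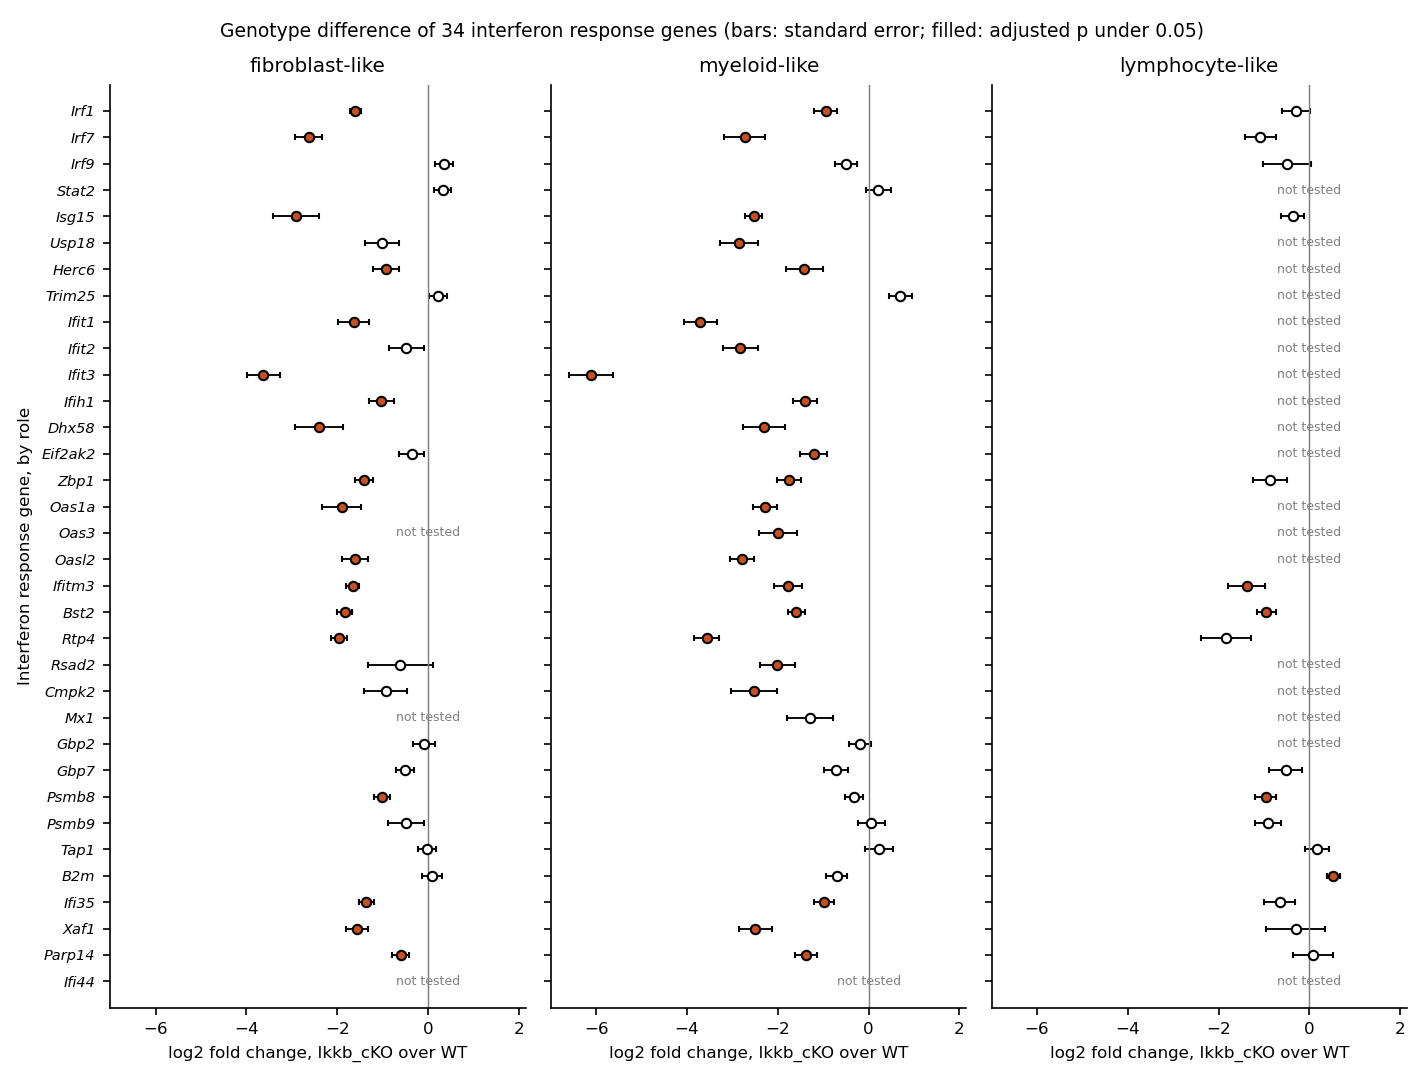
Log2 fold change (Ikkb_cKO over WT, x axis) of each of the 34 genes, ordered by role, in fibroblast-like, myeloid-like and lymphocyte-like cells; bars are standard errors and filled points have an adjusted p under 0.05. Filled points lie left of 0 for 18, 23 and 3 genes, and right of 0 for B2m in lymphocyte-like cells alone.

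The cells behind these sums differed between genotypes in more than the members. Of fibroblast-like cells, cluster c31 held 0.028% in WT and 62.1%, 61.5% and 9.78% in Ikkb_cKO libraries 1, 2 and 3. Cluster c0 held 2.73% and 3.15% in WT and 1.73%, 2.90% and 42.6% in Ikkb_cKO, so that it was larger in library 3 and not in the other two. Cluster c2 held 3.38% against 22.2%, while clusters c6, c14 and c5 held 17.9%, 15.2% and 14.3% in WT against 0.644%, 0.161% and 2.58%. Of myeloid-like cells, cluster c10 held 48.0% in WT and 15.2% in Ikkb_cKO, and cluster c19 21.2% and 41.8%. Of lymphocyte-like cells, cluster c15 held 40.5% and 20.4%, and cluster c25 21.5% and 47.5%. The class means therefore weigh different clusters in the 2 genotypes, and values within clusters are given further below.

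Markers of other cell types also moved with genotype inside the classes, and their part in the results was not tested. In fibroblast-like cells, 11 of 12 mural markers had a UMI (Higd1b was at 0), and their sum was 443 to 469 plain CPM in WT and 82.2 to 188.5 in Ikkb_cKO. In myeloid-like cells all 12 fibroblast markers had a UMI, with sums of 433 to 450 and 128 to 207, and endothelial markers (Emcn at 0) summed to 198 to 247 and 50.5 to 95.1. Mast cell markers, with Mrgprb1 at 0, went the other way there, from 8.12 to 14.5 in WT to 98.2 to 131 in Ikkb_cKO. In lymphocyte-like cells neutrophil markers, with S100a8, S100a9 and Ly6g at 0, summed to 0 to 9.81 in WT and 187 to 583 in Ikkb_cKO. The median UMI count per fibroblast-like cell was 4790.5 and 5303 in WT and 1541 to 2449 in Ikkb_cKO. The median share of mitochondrial UMIs per cell was higher in every Ikkb_cKO library than in WT: 2.08% and 2.13% against 3.23% to 3.48% in fibroblast-like, 2.27% and 2.33% against 2.65% to 3.16% in myeloid-like, and 2.35% and 2.37% against 2.89% to 4.06% in lymphocyte-like cells. Its part in the results was not tested either.

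Among the signalling genes, Irf1 and Irf7 fell in both fibroblast-like and myeloid-like cells, while Irf9 and Stat2 were not called. Irf7, which amplifies type I interferon output and is itself interferon-induced, stood in fibroblast-like cells at 119.7 and 110.0 CPM in WT libraries 1 and 2 and at 20.1, 27.1 and 11.6 in Ikkb_cKO libraries 1, 2 and 3. Every WT library lay above every Ikkb_cKO library, and the log2 fold change was −2.63 ± 0.300 (SE; adjusted p = 0.00233). Reads of Irf7 may be shared with Phrf1, whose exons overlap it on the opposite strand, since the strand setting of the counting is not given in the sources used here. In myeloid-like cells Irf7 was at 156.4 and 167.5 against 36.6, 48.7 and 10.2 CPM, again without overlap (log2 fold change −2.73, adjusted p = 0.00253).

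Irf1, a factor induced by type II interferon and by NF-kB, was at 440.4 and 411.2 CPM in WT fibroblast-like cells and at 145.0, 130.2 and 146.3 in Ikkb_cKO. The 3 Ikkb_cKO libraries lay close together and under both WT libraries, and the log2 fold change was −1.60 ± 0.127 (adjusted p = 0.00126). Myeloid-like cells had less of it, 76.5 and 65.4 against 22.5, 33.3 and 43.9 CPM, with a log2 fold change of −0.95 (adjusted p = 0.0263). That myeloid-like call was lost under 6 of 20 alternatives, among them leaving out WT library 1 (adjusted p = 0.238) or WT library 2 (0.116) and DESeq2 (0.0757). Irf9, the DNA-binding partner of STAT2, gave log2 fold changes of 0.35 in fibroblast-like (95% interval −0.11 to 0.81) and −0.50 in myeloid-like cells (−1.02 to 0.02), with adjusted p of 0.193 and 0.171. Its exons overlap those of Rnf31 on the same strand. Stat2 gave 0.33 (−0.12 to 0.77) and 0.21 (−0.40 to 0.83). In lymphocyte-like cells none of the 3 signalling genes tested was called: Irf1 was at −0.29, Irf7 at −1.08 (adjusted p = 0.0600) and Irf9 at −0.49.

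Isg15, the ubiquitin-like protein that interferon attaches to many targets, was at 473.7 and 503.0 CPM in WT fibroblast-like cells and at 39.3, 119.3 and 39.2 in Ikkb_cKO. Ikkb_cKO library 2 was well above the other two, yet under both WT libraries, and the log2 fold change was −2.91 ± 0.508 (adjusted p = 0.0104). This call was lost without WT library 1 or WT library 2 (adjusted p = 0.105 in each case), without Ikkb_cKO library 3 (0.0549), without a low-count filter (0.0636) and with the replicate number as a block (0.0937). In myeloid-like cells Isg15 was at 381.5 and 389.0 against 76.0, 69.3 and 60.0 CPM, with a log2 fold change of −2.53 (adjusted p = 3.21e-05). Usp18, which removes ISG15 from its targets and dampens the type I receptor, was at 19.1 and 26.3 CPM in WT myeloid-like cells and at 2.82, 5.13 and 2.68 in Ikkb_cKO, a log2 fold change of −2.85 ± 0.419 (adjusted p = 0.00142). In fibroblast-like cells it was not called, at −1.0 (interval −1.89 to −0.11, adjusted p = 0.0772).

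Herc6, the main ISG15 ligase of the mouse, fell by 0.92 on the log2 scale in fibroblast-like (adjusted p = 0.0486) and by 1.41 in myeloid-like cells (adjusted p = 0.0360). These calls were lost under 11 of 18 and 7 of 17 alternatives, leaving out either WT library among them. Trim25, a ligase that acts on RIG-I, had log2 fold changes of 0.22 and 0.70 (adjusted p = 0.0761 in myeloid-like cells). In that class its Ikkb_cKO libraries, at 205.5, 192.4 and 341.5 CPM, all lay above the WT ones at 162.8 and 149.2.

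The IFIT proteins bind viral RNA ends and block its translation. Ifit3 was at 100.5 and 124.1 CPM in WT fibroblast-like cells and at 11.1, 14.5 and 4.80 in Ikkb_cKO, 12.3-fold lower in the fit (adjusted p = 0.00198), with every Ikkb_cKO library under both WT libraries. In myeloid-like cells it stood at 50.8 and 65.4 CPM in WT and at 0, 0 and 1.07 in Ikkb_cKO, which is 322 UMIs against 2. Per UMI of the class this was 78.1-fold lower, with an exact 95% counting interval of 21.5 to 648 that covers counting error only, and the adjusted p was 4.01e-05. Ifit3 and its near-identical copy Ifit3b may share reads, so its level is uncertain.

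Ifit1 was at 81.9 and 95.5 CPM in WT fibroblast-like cells against 24.2, 46.1 and 18.4, a log2 fold change of −1.64 ± 0.347 (adjusted p = 0.0144) that was lost without either WT library or without Ikkb_cKO library 1. Its WT level in myeloid-like cells was 37.1 and 34.6 CPM, and its Ikkb_cKO level 2.82, 2.57 and 2.68, the last 3 values being 1, 1 and 5 UMIs. The log2 fold change there was −3.70 ± 0.358 (adjusted p = 0.000143). Ifit2 was not called in fibroblast-like cells, at −0.47 (interval −1.39 to 0.44), where its groups overlapped, and fell by 2.83 in myeloid-like cells (adjusted p = 0.000976). All 3 genes lacked the counts for a test in lymphocyte-like cells, with at most 6 UMIs of any of them in a library.

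Of the 4 genes of RNA sensing and nucleic acid response, 3 fell in fibroblast-like and 4 in myeloid-like cells. Zbp1, a sensor of Z-form nucleic acid that can start necroptosis, was at 45.6 and 49.0 CPM in WT fibroblast-like cells and at 13.1, 19.9 and 19.6 in Ikkb_cKO. The groups were apart, with a log2 fold change of −1.40 ± 0.201 (adjusted p = 0.00379), and in myeloid-like cells it was −1.75. Ifih1 encodes MDA5, a cytosolic sensor of long double-stranded RNA, and fell by 1.02 and 1.41 (adjusted p = 0.0276 and 0.00584). Dhx58, its regulator LGP2, fell by 2.40 and 2.29, from 14.1 and 17.2 CPM in WT fibroblast-like cells to 2.01, 7.23 and 1.20. Eif2ak2, the kinase PKR that stops translation on double-stranded RNA, had overlapping groups in fibroblast-like cells (−0.36, interval −1.03 to 0.31) and was at −1.21 in myeloid-like cells (adjusted p = 0.0173), a call lost under 7 of 20 alternatives, either WT library left out among them (adjusted p = 0.169 and 0.202). The fibroblast-like calls of Ifih1 and Dhx58 were lost without either WT library, that of Zbp1 without WT library 2, and the myeloid-like calls of Ifih1 and Dhx58 without either.

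The oligoadenylate synthetases make the second messenger that activates RNase L. Oas1a was at 23.8 and 23.4 CPM in WT fibroblast-like cells and at 11.1, 8.14 and 2.80 in Ikkb_cKO, a log2 fold change of −1.90 ± 0.424 (adjusted p = 0.0151). It may share reads with its near-identical copy Oas1g. Oasl2, a family member with a ubiquitin-like tail, was at 62.8 and 65.2 against 25.2, 28.0 and 13.2 CPM in fibroblast-like cells (−1.61 ± 0.287, adjusted p = 0.00715). In myeloid-like cells it was at 92.1 and 86.2 against 19.7, 10.3 and 11.8 CPM (−2.78 ± 0.269, adjusted p = 0.000143). The fibroblast-like calls of Oas1a and Oasl2 were lost without either WT library. In myeloid-like cells Oas1a fell by 2.28 and Oas3 by 2.00 (adjusted p = 0.000320 and 0.00851), the call of Oas3 being lost without WT library 2.

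Ifitm3, which blocks the entry of enveloped viruses at endosomal membranes, was at 2513 and 2430 CPM in WT fibroblast-like cells and at 694.8, 731.4 and 924.5 in Ikkb_cKO. Even the highest Ikkb_cKO library was far under both WT libraries, and the log2 fold change was −1.66 ± 0.147 (adjusted p = 0.00145). In myeloid-like cells it was at 3377 and 3538 against 1253, 1277 and 532.6 CPM, with Ikkb_cKO library 3 under the other two (−1.78, adjusted p = 0.00317). Lymphocyte-like cells held little of it, 45.5 and 44.3 CPM in WT and 22.6, 17.5 and 14.1 in Ikkb_cKO, or 7 to 20 UMIs a library, at a share of cells near that in muscle-like cells. That fall of 1.38 ± 0.409 (adjusted p = 0.0471) did not pass the threshold under 13 of 19 alternative settings.

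Bst2, or tetherin, which holds budding virions at the cell surface, was at 526.1 and 508.1 CPM in WT fibroblast-like cells and at 165.1, 155.5 and 116.8 in Ikkb_cKO (−1.83 ± 0.172, adjusted p = 0.00154). In lymphocyte-like cells it was at 237.5 and 224.5 against 130.9, 107.7 and 120.5 CPM (−0.94 ± 0.215, adjusted p = 0.0157), and in myeloid-like cells it fell by 1.59. No Ikkb_cKO library reached a WT library in any of the 3 classes. Rtp4, a chaperone of receptors that also restricts RNA virus replication, was at 101.3 and 101.1 against 28.2, 28.9 and 22.4 CPM in fibroblast-like cells (−1.96 ± 0.168, adjusted p = 0.00134). In myeloid-like cells it was at 110.1 and 117.0 against 5.63, 12.8 and 9.64 CPM (−3.56 ± 0.276, adjusted p = 3.66e-05). For lymphocyte-like cells the Rtp4 difference of −1.84 missed the threshold (interval −3.04 to −0.63, adjusted p = 0.0516), and it passed under 8 alternative settings.

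Rsad2 encodes viperin, which makes a chain-terminating nucleotide, and Cmpk2 is its neighbour and supplies nucleotides. In fibroblast-like cells neither was called: Rsad2 was at 15.0 and 34.4 CPM in WT and at 23.2, 27.1 and 4.80 in Ikkb_cKO, with overlapping groups (−0.61, interval −2.37 to 1.16), and Cmpk2 was at −0.93. In myeloid-like cells they fell by 2.02 and 2.53 (adjusted p = 0.00557 and 0.00719), from 70.3 and 72.3 CPM to 8.44, 2.57 and 25.2 for Rsad2, and the call of Cmpk2 was lost without either WT library. Mx1, a GTPase that binds viral nucleocapsids and is defective in many laboratory strains, was not called in myeloid-like cells (−1.29, adjusted p = 0.104).

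The guanylate-binding proteins, large GTPases that coat vacuoles of pathogens and respond mainly to type II interferon, were not called in the classes where they were tested, and Gbp2 was not tested in lymphocyte-like cells. Gbp2 stood at 96.7 and 92.3 CPM in WT fibroblast-like cells and at 61.4, 89.5 and 112.0 in Ikkb_cKO, so that the groups overlapped (−0.09, interval −0.65 to 0.47). Gbp7 gave −0.51, −0.72 and −0.52 in fibroblast-like, myeloid-like and lymphocyte-like cells (adjusted p = 0.0835, 0.0793 and 0.364).

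Of the 4 antigen processing genes, 1 fell in fibroblast-like and 0 in myeloid-like cells, and in lymphocyte-like cells 1 fell and 1 rose. Psmb8 encodes a catalytic subunit of the immunoproteasome, and in fibroblast-like cells it was at 106.7 and 101.7 CPM in WT and at 59.4, 41.6 and 53.6 in Ikkb_cKO (−1.01 ± 0.176, adjusted p = 0.00664, lost without either WT library). In lymphocyte-like cells it was at 758.0 and 723.6 against 449.0, 448.2 and 258.0 CPM (−0.96 ± 0.231, adjusted p = 0.0225). In myeloid-like cells its groups overlapped, at 400.6 and 470.7 against 436.3, 343.7 and 282.6 CPM (−0.32, interval −0.76 to 0.13). Its partner Psmb9 was not called in any of the 3 classes and gave −0.48, 0.06 and −0.91 (adjusted p = 0.375, 0.917 and 0.0633). Psmb9 and the peptide transporter subunit Tap1 lie on opposite strands with overlapping exons, and Tap1 gave −0.02, 0.23 and 0.17.

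B2m, the light chain of MHC class I molecules, was the only member called higher in Ikkb_cKO in any of the 3 class tests. Lymphocyte-like cells held 2222 and 2182 CPM in WT and 3154, 2982 and 3410 in Ikkb_cKO. The lowest Ikkb_cKO library was above both WT libraries, with a log2 fold change of 0.53 ± 0.133 (adjusted p = 0.0236), but the call was lost under 7 of 20 alternatives, among them leaving out WT library 1, WT library 2, Ikkb_cKO library 1 or Ikkb_cKO library 2. Fibroblast-like cells gave overlapping values of 911.2 and 925.8 against 878.1, 773.9 and 1274 CPM (0.09 ± 0.214). Myeloid-like cells went the other way, at 2096 and 2005 against 982.3, 1031 and 1748 CPM, without passing the threshold (−0.70, adjusted p = 0.0593). That fall passed under some alternatives, among them limma voom (adjusted p = 0.0428), equal cell numbers (0.00936) and leaving out Ikkb_cKO library 3 (1.04e-09).

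The 3 further targets tested fell in both fibroblast-like and myeloid-like cells. Xaf1, a binding partner of the apoptosis inhibitor XIAP, was at 70.4 and 67.8 CPM in WT fibroblast-like cells and at 28.2, 28.0 and 16.8 in Ikkb_cKO (−1.56 ± 0.234, adjusted p = 0.00434). In myeloid-like cells it fell by 2.50. Ifi35, a small interferon-induced protein, fell by 1.36 and 0.98, and Parp14, an ADP-ribosyltransferase, by 0.60 and 1.38. The fibroblast-like call of Parp14 (adjusted p = 0.0444) was lost under 8 of 20 alternatives, either WT library left out among them, and the myeloid-like calls of Ifi35 and Parp14 were lost without WT library 1, that of Ifi35 also without WT library 2. None of these 3 was called in lymphocyte-like cells, at −0.30, −0.65 and 0.07 for Xaf1, Ifi35 and Parp14.

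**Figure D2:**
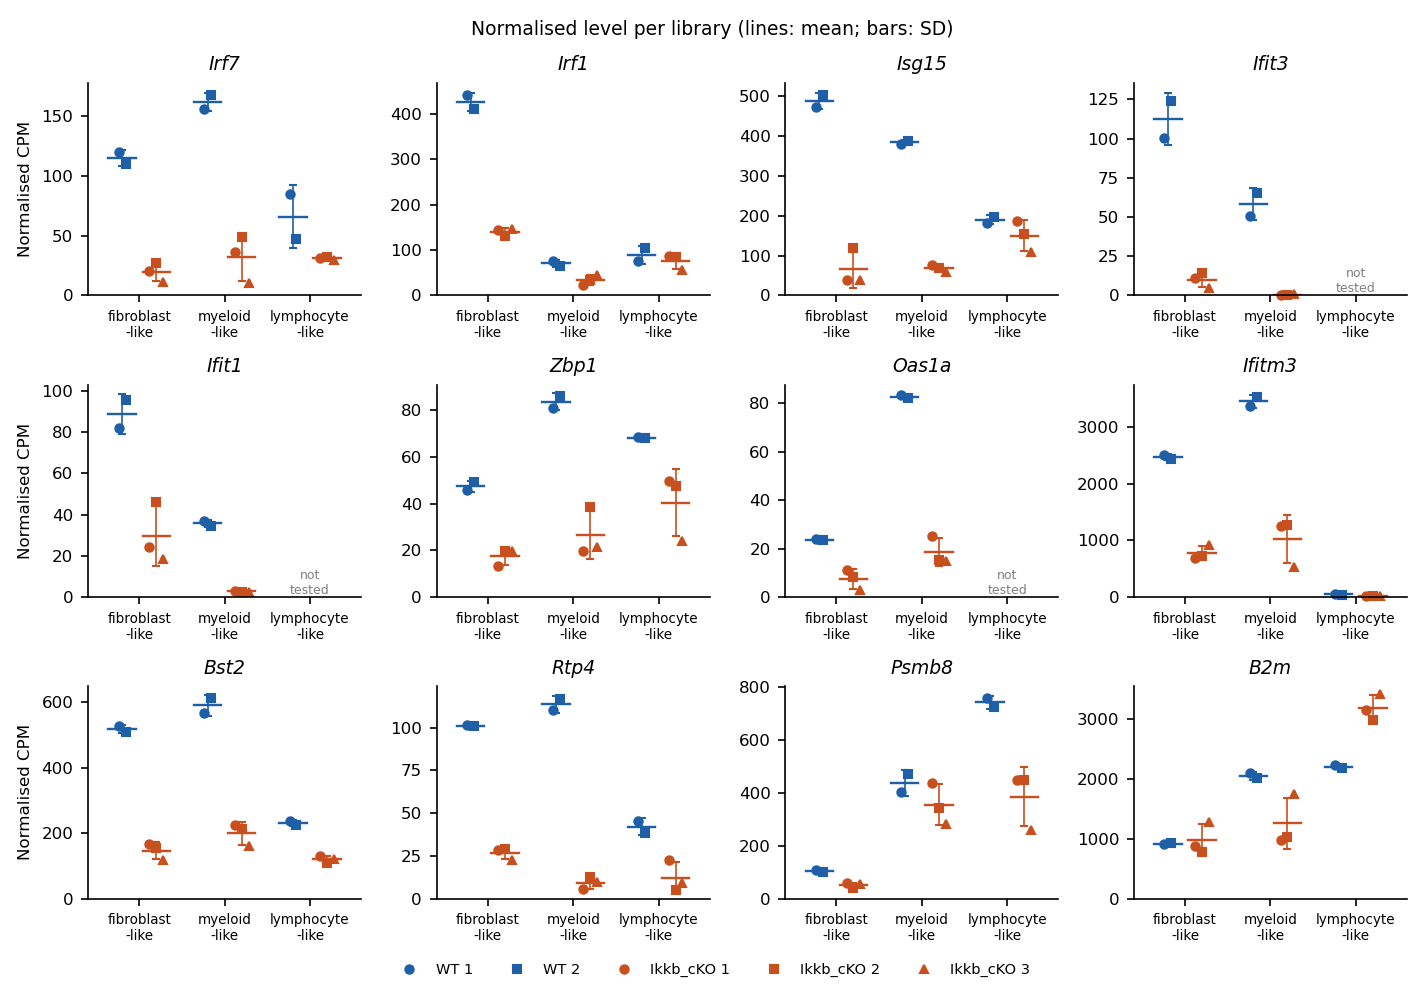
Normalised CPM (y axis, from 0) of 12 genes in each library of the 3 tested classes; points are libraries, lines the mean and bars the SD of 2 WT (blue) and 3 Ikkb_cKO (orange) libraries. In fibroblast-like cells the colours are apart for every gene shown except B2m, whose values run from 773.9 to 1274 CPM.

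The genotype difference was then compared between classes in one fit with library as a block, which asks whether a gene changed more in one class than in another. Between fibroblast-like and myeloid-like cells it differed for 8 of 31 genes, against 20.2% of all genes tested. It was more negative in fibroblast-like cells for 1 of these 8, against 9.54% of all genes. The count of 8 is near the share of all genes, so it does not set the members apart. The difference of log2 fold changes, fibroblast-like minus myeloid-like, was 2.20 for Ifit2, 1.83 for Ifit1, 1.54 for Rtp4, 1.53 for Usp18, 0.97 for Oasl2, 0.80 for Irf9 and 0.82 for B2m, all toward a lower value in myeloid-like cells. It was −0.65 for Psmb8, toward a lower value in fibroblast-like cells. Adjusted p ran from 0.00356 for Rtp4 to 0.0483 for Irf9. With WT library 1 or WT library 2 left out, 0 of these differences passed, and 5 passed without Ikkb_cKO library 1 and 4 without Ikkb_cKO library 2.

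Against lymphocyte-like cells, the fibroblast-like difference was more negative for 4 of 16 genes (4.12% of all genes, with 6.14% differing in either direction). These were Isg15 (−2.61, adjusted p = 0.0271), Irf7 (−1.60, 0.0243), Irf1 (−1.20, 0.0237) and Bst2 (−0.86, 0.0322), and 0 remained called without either WT library and 1 without Ikkb_cKO library 1. Myeloid-like cells differed from lymphocyte-like cells for 4 of 16 (6.07% of all genes, 3.58% with myeloid-like more negative). The myeloid-like value was lower by 2.13 for Isg15 (adjusted p = 6.00e-05), by 1.97 for Xaf1 (0.0333) and by 1.33 for B2m (0.000975), and higher by 0.88 for Psmb9 (0.0308).

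Since cluster shares differed, the 7 clusters that reached 20 cells in all 5 libraries were tested on their own, and 37 falls and 2 rises of members were called (24 falls without WT library 2, and 0 rises without either WT library). In fibroblast-like cluster c8, 9 of 11 tested members fell (19.1% of genes tested there fell), in c7 7 of 11 (14.8%) and in c2 3 of 8 (7.26%). Ifit3 in c8 was at 329.5 and 419.6 CPM in WT and at 43.6, 0 and 10.6 in Ikkb_cKO, or 400 and 535 UMIs against 3, 0 and 1. The guanylate-binding protein gene Gbp2, not called for the class, fell by 1.01 in c8, from 202.6 and 232.2 to 188.8, 63.5 and 85.0 CPM (adjusted p = 0.0270). In c7 Isg15 went from 739.1 and 603.4 to 63.9, 80.6 and 63.1 CPM, and the log2 fold change was −3.29. In c2, whose share of the class was higher in Ikkb_cKO, Irf1 fell by 1.35, Ifitm3 by 1.17 and Psmb8 by 1.68.

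In myeloid-like cluster c19, 12 of 22 members fell and 1 rose (7.67% and 6.26% of genes). Psmb8 and Psmb9, not called for the class, fell there by 1.44 and 1.66 (adjusted p = 0.000154 and 0.00260), with Psmb8 at 386.1 and 393.5 CPM in WT and 156.1, 122.8 and 149.8 in Ikkb_cKO. Trim25 rose by 0.78 (adjusted p = 0.0331), from 231.7 and 203.9 to 312.3, 274.5 and 483.7 CPM. Cluster c17 had 4 of 21 that fell (2.07%): Isg15, Zbp1, Oasl2 and Rtp4, the last with 23 and 36 UMIs in WT and 0, 0 and 2 in Ikkb_cKO. In the lymphocyte-like clusters, Bst2 fell in c16 (1 of 7, 1.72%), and in c25 Ifitm3, near background in this class, fell and B2m rose by 0.58 (1 of 9 each way, against 4.41% and 6.59%). The median log2 fold change of the tested members was below 0 in all 7 clusters, from −1.98 in c8 to −0.24 in c25. The medians of all genes tested there ran from −0.016 in c16 to 0.046 in c25. Some members, such as Ifit3 in c8 and Rtp4 in c17, passed the count filter through WT libraries alone. That choice favours values below 0, so the member medians are a description only.

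**Figure D3:**
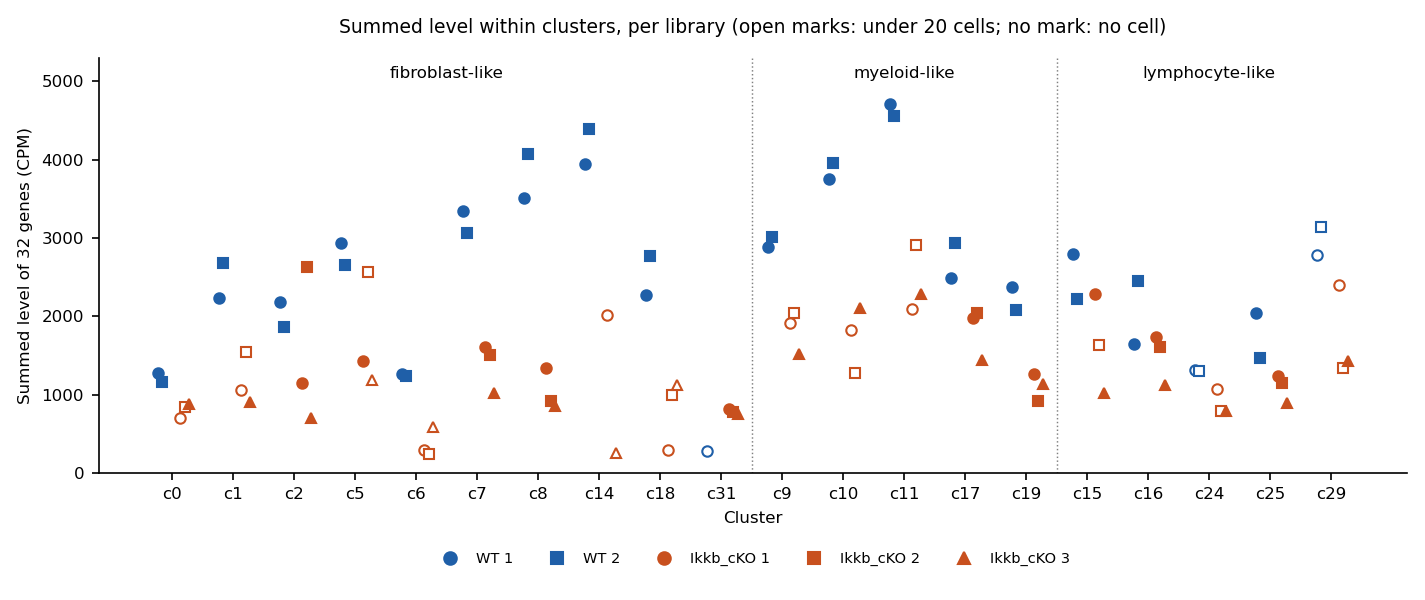
Summed plain CPM (y axis) of the 32 genes other than B2m and Ifitm3 in each cluster of the 3 tested classes, per library (blue WT, orange Ikkb_cKO; open marks have under 20 cells). The WT values in c8 are 3514 and 4073, while c31, found almost wholly in Ikkb_cKO, lies between 745 and 818.

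WT clusters differed among themselves as well. The summed level of 32 members (without B2m and Ifitm3, which held 55.5% of the members' UMIs in WT fibroblast-like cells) was 3947 and 4390 plain CPM in WT cluster c14 and 3514 and 4073 in c8. It was 1257 and 1235 in c6 and 1276 and 1166 in c0. In c31, Ikkb_cKO libraries stood at 818, 774 and 745. In c2, Ikkb_cKO library 2 reached 2628, above the WT values of 2187 and 1861.

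Because Ikkb_cKO cells were shallower, the share of cells with at least 1 UMI was also taken after thinning each cell to 1000 UMIs. In fibroblast-like cells this left out 82 to 145 cells a library. Ifitm3 was then found in 83.5% and 81.9% of WT and in 41.3%, 43.3% and 47.3% of Ikkb_cKO cells (unthinned 96.5% and 96.1% against 51.5%, 59.2% and 68.0%). Bst2 was in 31.7% and 31.7% against 12.5%, 14.4% and 9.19%, and Isg15 in 20.9% and 21.9% against 1.87%, 4.55% and 2.20%. Each of these splits gave the smallest two-sided p an exact permutation over the 10 splits of 5 libraries allows, 0.1.

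Muscle-like cells, which should express little of these genes and had medians of 1467 to 3345 UMIs, gave a floor for free RNA: Ifitm3 was in 3.13% and 3.64% of thinned WT cells and in 0 of 35 Ikkb_cKO cells, which allows a share of up to 8.57%, and Isg15 in 0% and 1.82% of WT cells. Ikkb_cKO library 3 held 1 muscle-like cell, so that the floor of that genotype rests almost wholly on libraries 1 and 2. The fibroblast-like shares of Ifitm3 lay above these. The lowest Ikkb_cKO shares of Isg15 lay near them. The shares of Ifitm3 in lymphocyte-like cells, 3.28% and 4.67% against 2.07%, 1.26% and 0.846%, also lay near them and are read as background. In myeloid-like cells Ifitm3 was in 85.1% and 85.1% of WT cells and in 57.0%, 52.2% and 29.6% of Ikkb_cKO cells.

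The 8 rarer classes had too few cells for a test and are described by plain CPM. The share of all genes with a lower mean was not taken there. Counts of members with a lower or higher mean therefore do not set the members apart. In endothelial-like cells (198 cells) the summed level of the 32 genes was 4845 ± 16.8 (SD, n = 2) in WT and 4306 ± 1794 (n = 3) in Ikkb_cKO, with 17 members having a lower and 16 a higher mean in Ikkb_cKO. Their Ifitm3 was at 5033 and 5206 in WT and 4342, 2576 and 4161 in Ikkb_cKO. B2m was above WT in all 3 Ikkb_cKO libraries, at 1532 and 1540 against 3633, 1999 and 2982, while Isg15 was under it, at 848 and 656 against 443, 88.8 and 256. Ikkb_cKO libraries 1 and 2 held 9 and 10 of these cells.

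Mural-like cells (131 cells; pericytes and smooth muscle of vessels) had summed levels of 2654 and 2166 in WT and 1044, 858 and 677 in Ikkb_cKO. All 3 Ikkb_cKO libraries were below WT, and 25 members had a lower and 7 a higher mean. With few cells sampled, 14 members had no UMI in Ikkb_cKO and 3 had none in WT. Irf1 was at 616 and 755 against 0, 234 and 243, and Isg15 at 772 and 481 against 174, 156 and 20.2. Ifit3 had 24 UMIs in WT and 0 in Ikkb_cKO, at least 4.00-fold lower against a floor of 3 UMIs over the group, and Irf7 had 18 and 0, at least 3.00-fold lower. Ikkb_cKO libraries 1 and 2 held only 3 and 5 mural-like cells.

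Mast-like cells (125 cells) gave wide values: the sum was 1797 ± 154 in WT and 3077, 917 and 1768 in Ikkb_cKO, and Isg15 was at 659 and 644 against 1605, 53.9 and 1378. The groups overlapped in both. Schwann-like cells (60 cells, of which 3, 2 and 9 in the Ikkb_cKO libraries) had a sum of 1834 ± 451 in WT and 1338 ± 125 in Ikkb_cKO, with 17 members having a lower and 11 a higher mean. Their B2m was at 610 and 591 in WT and 1464, 1700 and 1512 in Ikkb_cKO. B-lineage-like cells (55 cells, of which 9 and 6 in WT) had a sum of 5893 ± 1879 in WT and 1520 ± 293 in Ikkb_cKO. Bst2 was there at 1765 and 3947 against 764, 417 and 496, and WT had no Ifitm3 UMI. Neutrophil-like cells (25 cells) had a WT mean of the sum set by library 1, with 17665 against 2296 in WT library 2. The mean in Ikkb_cKO was 1618. Isg15, at 9601 and 574 in WT, made up only a part of these sums. WT libraries 1 and 2 held 7 and 3 of these cells.

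Keratinocyte-like cells, 298 of 354 of which came from Ikkb_cKO library 3, had low sums of 393 ± 83.5 in WT and 71.7, 444 and 187 in Ikkb_cKO. Muscle-like cells were lowest in both genotypes, at 55.6 and 134.7 in WT and 0, 8.85 and 0 in Ikkb_cKO. Ordered by the WT mean, the classes ran neutrophil-like, B-lineage-like, endothelial-like, myeloid-like, fibroblast-like, mural-like, lymphocyte-like, Schwann-like, mast-like, keratinocyte-like and muscle-like. The WT libraries of neighbouring classes overlapped from neutrophil-like to endothelial-like and from fibroblast-like to mast-like. They were apart between endothelial-like and myeloid-like (3270 ± 90.2), between myeloid-like and fibroblast-like (2666 ± 56.6), and below mast-like. In Ikkb_cKO, endothelial-like cells came first, and fibroblast-like cells, with 996 ± 164, ranked 8 of 11.

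**Figure D4:**
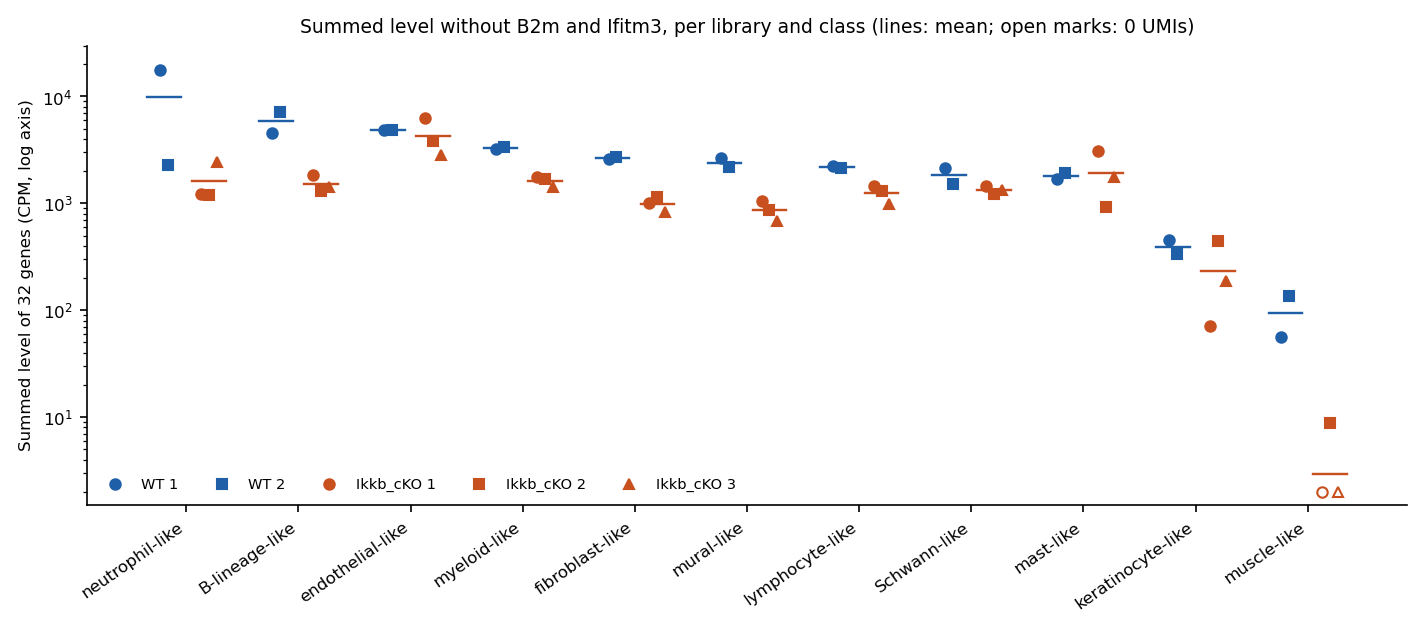
Summed plain CPM (log y axis) of the 32 genes other than B2m and Ifitm3 in 11 classes; points are libraries (blue WT, orange Ikkb_cKO), lines means and open marks libraries with 0 UMIs. WT and Ikkb_cKO are apart in fibroblast-like, myeloid-like, lymphocyte-like and mural-like cells. They are also apart in B-lineage-like, Schwann-like and muscle-like cells, where some libraries hold few cells. They overlap in endothelial-like, mast-like and keratinocyte-like cells.

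**Figure D5:**
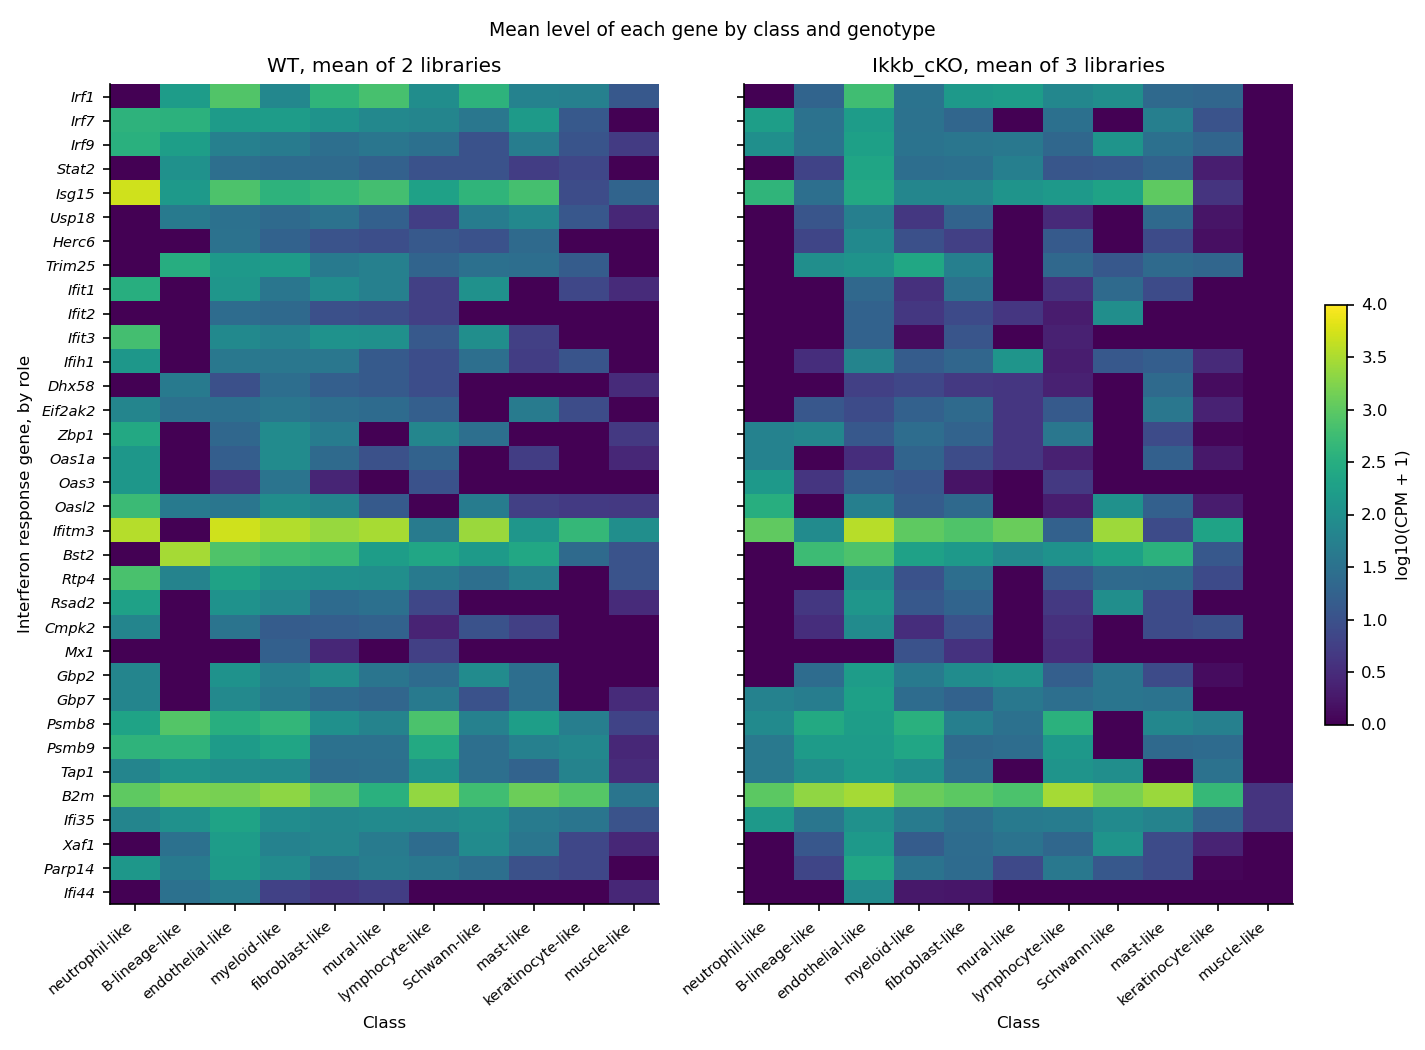
Mean plain CPM of each of the 34 genes (rows, by role) in 11 classes (columns) for WT and Ikkb_cKO libraries, as log10(CPM + 1) from 0 to 4. Ifitm3 and B2m are the brightest rows in most classes; in the lymphocyte-like column B2m is bright and Ifitm3, at 45.0 CPM in WT and 16.5 in Ikkb_cKO, is not.

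The rest of the pathway was described by a list of 78 genes that are not among the 34. In fibroblast-like cells 23 of 62 tested fell and 11 rose, where 18.1% and 17.4% of all genes tested did. In myeloid-like cells 28 of 68 fell and 6 rose (9.47% and 8.92% of all genes), and in lymphocyte-like cells 12 of 51 fell and 1 rose (4.26% and 6.85%). The medians of their log2 fold changes were −0.46, −0.53 and −0.04. The 8 ligand genes had too few UMIs for a test in fibroblast-like and myeloid-like cells, and 1 was tested and not called in lymphocyte-like cells. Without WT library 1 the calls of this list were 9 lower and 0 higher in fibroblast-like, 14 and 3 in myeloid-like, and 2 lower in lymphocyte-like cells, and without WT library 2 they were 9 and 0, 12 and 2, and 1. Without Ikkb_cKO library 2, 7 genes rose in fibroblast-like and 3 fell in lymphocyte-like cells, where 7 fell without Ikkb_cKO library 1 and 6 rose without Ikkb_cKO library 3.

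Of the receptor genes, 2 of 5 fell in each class, where 18.1%, 9.47% and 4.26% of all genes did. Ifnar2, a chain of the type I receptor, fell by 0.56 in fibroblast-like (106.8 and 99.0 against 72.5, 74.1 and 64.0 CPM, adjusted p = 0.0242), by 0.97 in myeloid-like and by 0.96 in lymphocyte-like cells. Ifngr2, a chain of the type II receptor, fell by 1.28 in fibroblast-like cells (adjusted p = 0.00318), and Ifngr1 by 0.70 in lymphocyte-like cells (adjusted p = 0.0139). Of the kinases and factors tested, 3 of 7 rose in fibroblast-like, 3 of 9 in myeloid-like and 1 of 9 in lymphocyte-like cells, and 0 fell. Of all genes, 17.4%, 8.92% and 6.85% rose. Jak2 rose by 1.26, 2.38 and 1.58 in the 3 classes (in myeloid-like cells from 31.0 and 32.2 to 154.8, 118.0 and 207.7 CPM). Jak1 rose by 0.52 in fibroblast-like cells, and Irf8, a factor of myeloid development, by 1.65 and 1.24 in fibroblast-like and myeloid-like cells.

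Among genes that sense nucleic acid upstream of interferon or relay that signal, 1 of 7 tested rose in fibroblast-like cells (17.4% of all genes). In myeloid-like cells 2 of 8 fell (9.47%). Tlr3 rose by 1.12 in fibroblast-like cells (adjusted p = 0.0230), and Ddx58, which encodes RIG-I, fell by 2.50 in myeloid-like cells (adjusted p = 0.00122). Of 4 inhibitors tested in fibroblast-like cells, 1 fell and 2 rose (18.1% and 17.4% of all genes). Of 5 in myeloid-like cells, 1 fell and 1 rose (9.47% and 8.92%), and of 5 in lymphocyte-like cells 1 fell (4.26%). Socs1 fell by 0.73 in fibroblast-like cells (151.8 and 123.8 against 80.6, 82.3 and 85.6 CPM) and rose by 1.70 in myeloid-like cells (11.1 and 6.58 against 31.0, 15.4 and 32.7 CPM). The phosphatase gene Ptpn2 rose by 1.35 and the STAT inhibitor gene Pias1 by 0.76 in fibroblast-like cells. Of the 42 other targets, 20 of 39 fell in fibroblast-like, 23 of 41 in myeloid-like and 9 of 28 in lymphocyte-like cells, against 18.1%, 9.47% and 4.26% of all genes. In the same classes 5, 2 and 0 of them rose, against 17.4%, 8.92% and 6.85% of all genes. Ly6e, a surface protein that restricts coronavirus entry, fell in all 3, by 1.79, 2.03 and 0.52. The chemokine gene Cxcl10 was at 265.9 and 269.5 CPM in WT fibroblast-like cells and at 57.4, 51.5 and 77.6 in Ikkb_cKO (−2.09, adjusted p = 0.00150).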

How the data were processed

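For each library the authors deposited a matrix of raw UMI counts by gene and called barcode. Per the submitters' processing notes they come from Cell Ranger 1.3.0 on mm10, while the file headers name software version 3.0.1 with format version 2. Barcodes needed 300 or more genes and no more than 10% of UMIs from mitochondrial genes. Scrublet scored doublets per library; its own threshold marked 39 barcodes (0.352%), so a rule set after seeing the data marked 240 (2.17%), of which 218 had passed the filter. Variable genes, without the 34 members and the pathway genes, were clustered with scanpy 1.11.5 by the Leiden method, and 30 of 32 clusters were named from marker lists, leaving 98 cells unnamed. The naming rule was set after seeing the data.

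Counts were summed per library and class. Genes passing filterByExpr were normalised by TMM and tested with the robust quasi-likelihood test of edgeR 4.0.16 in R 4.3.3, with Benjamini-Hochberg adjustment over every gene tested in a class, and called at an adjusted p under 0.05. Libraries were the replicates; each pools 2 mice, so that p-values rest on 2 against 3 pools. In fibroblast-like, myeloid-like and lymphocyte-like cells, UMI sums per library ran from 983585 to 11682801, 358727 to 2892963 and 305805 to 1498835. Genes on a 3′ tag platform give levels that are not divided by length, and fewer expressing cells and less RNA per cell cannot be told apart in a class sum. The members, the pathway list and the tests were chosen with earlier results of these data known. Full values are given for called members that averaged 4 or more in log2 CPM, the 12 largest changes in fibroblast-like cells and 5 in the other classes, and for members called against the majority of their class; others with values were chosen after these were seen. Promoter and gene positions come from RefSeq and GENCODE on GRCm38; exons of 15 of the 34 genes overlap another gene, 10 on the other strand and 5 on the same strand. Alternatives were DESeq2 1.42.0, limma 3.58.1 with voom, other filters and scalings, equal cell numbers, thinning, other clusterings, summing Ikkb_cKO libraries 1 and 2, and leaving out each library.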

Additional observations from a re-analysis of the deposited data

Results flagged for a closer look

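The genotype difference itself differed between classes for 16 pairs of gene and class comparison by the edgeR interaction test, and these are given here together. Of all genes tested, 20.2% differed between fibroblast-like and myeloid-like cells, 6.14% between fibroblast-like and lymphocyte-like cells and 6.07% between myeloid-like and lymphocyte-like cells. The first share is near that of the members, 8 of 31. Without WT library 1, and likewise without WT library 2, 0, 0 and 2 members differed in these comparisons. Between fibroblast-like and myeloid-like cells, the difference of log2 fold changes (fibroblast-like minus myeloid-like) was 0.80 for Irf9, 1.53 for Usp18, 1.83 for Ifit1, 2.20 for Ifit2, 0.97 for Oasl2, 1.54 for Rtp4, −0.65 for Psmb8 and 0.82 for B2m. Between fibroblast-like and lymphocyte-like cells it was −1.20 for Irf1, −1.60 for Irf7, −2.61 for Isg15 and −0.86 for Bst2. Between myeloid-like and lymphocyte-like cells it was −2.13 for Isg15, 0.88 for Psmb9, −1.33 for B2m and −1.97 for Xaf1. The 3 comparisons share classes and libraries, so that a gene in more than one of them is not counted as separate evidence. Groups of 2 and 3 libraries are too small for a test of single outlying libraries.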

How the results depend on the processing

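None of the values below changed sign where it was called, and 8 of the 18 fibroblast-like calls, 14 of the 23 myeloid-like calls and 0 of the 4 lymphocyte-like calls held under every alternative in which they were tested. Shallow Ikkb_cKO libraries and 2 WT libraries limit these comparisons, and the cause of each change below was not tested. DESeq2 gave 0 higher members in lymphocyte-like cells, 3, 2 and 2 differences between classes (fibroblast-like with myeloid-like, fibroblast-like with lymphocyte-like, myeloid-like with lymphocyte-like), and 20 lower and 0 higher members within clusters. Library totals without TMM gave 6 lower and 0 higher members in lymphocyte-like cells, where the median of all genes moved to −0.11, and 1 higher member within clusters. Limma voom gave 1 higher member in myeloid-like cells, a log2 fold change of 0.62 for Ikbkb there, and 1 higher within clusters. Without a low-count filter, 1 myeloid-like member was higher, 5 lymphocyte-like members were lower, 3 lymphocyte-like pathway genes were higher, 7 myeloid-like with lymphocyte-like differences were called, and 64 lower and 1 higher members within clusters. A minimum count of 30 gave 19 lower within clusters. Summing Ikkb_cKO libraries 1 and 2 gave 1 lower and 0 higher members and 5 lower pathway genes in lymphocyte-like cells, and 4 and 1 differences of fibroblast-like from myeloid-like and lymphocyte-like cells. Equal cell numbers gave 3 higher pathway genes and 0.87 for Ikbkb in myeloid-like cells, 7 lower pathway genes in lymphocyte-like cells, 5 and 1 differences of fibroblast-like cells, and 18 lower and 1 higher within clusters. Thinning cells to 1000 UMIs gave 4 higher pathway genes in fibroblast-like cells, 1 higher member in myeloid-like cells, 5 lower pathway genes in lymphocyte-like cells, 1 fibroblast-like with myeloid-like and 2 myeloid-like with lymphocyte-like differences, and 16 lower and 1 higher within clusters. The clusters were not rerun under other cell filters, doublet settings, resolutions or variable genes.

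With each library left out in turn, fibroblast-like members ranged from 8 to 19 lower and 0 to 1 higher, and pathway genes from 9 to 25 lower and 0 to 15 higher. In myeloid-like cells these were 15 to 24, 0 to 1, 12 to 28 and 2 to 8, with Ikbkb from 0.45 to 0.75. In lymphocyte-like cells they were 0 to 4, 0 to 1, 1 to 12 and 1 to 6. Differences between classes ranged from 0 to 9 (fibroblast-like with myeloid-like), 0 to 5 (fibroblast-like with lymphocyte-like) and 2 to 6 (myeloid-like with lymphocyte-like), and members within clusters from 24 to 47 lower and 0 to 2 higher. Where a WT library was left out, the lone WT library was assumed to vary like the other group.

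With the replicate number as a block, fibroblast-like members numbered 19 lower and 1 higher, Irf9 at 0.50 (adjusted p = 0.0212), myeloid-like members 19 lower, and lymphocyte-like members 2 lower with 4 pathway genes higher; within clusters 1 was higher. The samples share only a number, and the correlations of same-numbered deviations ran from −0.040 to 0.033.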

Other observations

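Cells in the 2 clusters without a class name also had values for the members. In cluster c26 (72 cells, led by Myog and Chodl), the summed level of the 32 genes was 842 and 534 plain CPM in WT and 502, 361 and 971 in Ikkb_cKO. In cluster c27 (26 cells, led by Krt18 and Krt8) it was 1057 and 955 in WT and 1380 in Ikkb_cKO library 2, the last being 7 UMIs from 2 cells, with the other Ikkb_cKO libraries having no cell there.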
